A study of Homo sapiens with 9 samples.

Results

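TUBB6, SLC38A2 and TBC1D14 are the genes that hold the 3 deepest sites of the control list that are missing at the same base from both knockdown lists. Sites were taken by position and strand inside hg19 intervals: TUBB6 on chromosome 18 from 12308257 to 12326568 (plus strand), SLC38A2 on chromosome 12 from 46751972 to 46766645 (minus strand) and TBC1D14 on chromosome 4 from 6911171 to 7034845 (plus strand). These intervals held 8 of the 4934 sites in the 3 lists, namely 7 of 3755 in control, 0 of 482 with the first SETD2 hairpin and 1 of 697 with the second. The genes were selected on their control scores and on their absence after knockdown, so those values are a description and carry no test.

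The study mapped N6-methyladenosine (m6A) in HepG2, an established human hepatocellular carcinoma cell line. The cells stably carried a lentiviral shRNA under puromycin selection: a non-specific control (shCtrl), shSETD2#1 (hairpin 1) or shSETD2#2 (hairpin 2). There were 9 samples, 3 labelled replicates per shRNA, and 1 pooled list per shRNA, so no value has a replicate error. The series calls the assay miCLIP while the titles say m6A-seq, and the protocol names immunoprecipitation with an m6A antibody without mention of crosslinking.

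m6A is written on nascent mRNA by the METTL3 and METTL14 complex, most often near stop codons and in 3' untranslated regions, and affects the stability and translation of the message. SETD2 trimethylates histone H3 along transcribed genes, a mark that METTL14 has been described to bind, and the knockdown asks what happens to m6A when that enzyme is lowered. TUBB6 encodes a beta-tubulin isotype, a building block of microtubules. SLC38A2 encodes SNAT2, a sodium-coupled transporter of small neutral amino acids that cells induce when amino acids run short. TBC1D14 encodes a TBC domain protein that acts on recycling endosomes and holds back autophagosome formation.

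Each listed site is a single base with a whole-number score, read here as the number of reads over the site. The score's meaning is not stated by the authors. The number of reads with a C-to-T change, the change by which the lists name their sites, was reconstructed from the order of the site names and is an inference. The lowest listed score was 3. At least 1 changed read per listed site is assumed by the reconstruction and is not stated in the lists. A base that is not listed can still have been covered by reads, so absence from a list does not give a score of 0. Every interval of a share is the 95% exact Clopper-Pearson one. It covers counting error alone, because several reads can come from 1 molecule.

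In TUBB6 the control list held a very deep site at the end of the gene and a shallow one upstream. The deep site, at position 12326396 of chromosome 18 (plus strand), had a score of 6489 in control, rank 4 of all control sites and rank 2 of the nuclear ones. It lay 172 nt before the 3' end of the interval. The other control site, at 12325459, had a score of 22 and lay 937 nt further upstream. Neither base was listed with hairpin 1 or with hairpin 2.

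TUBB6 was not empty in both knockdowns, which departs from a reading of all 3 genes as control-only. Hairpin 2 listed a TUBB6 site at 12326376, 20 nt upstream of the deep control site, with a score of 70. The median nuclear score of that list was 14, and the site had rank 125 among its nuclear sites. The score was 92.7-fold below that of the neighbouring deep control site, a ratio between different bases in separate pooled lists. Over all control sites, 93.6% had no listed site within 20 nt with hairpin 1 and 93.0% had none with hairpin 2. Hairpin 2 had 17 control sites that were matched within 20 nt but not at the same base, and their control score over hairpin 2 score had a median of 1.22. The TUBB6 ratio was among the 17, and its numerator is the control score on which the gene was selected, so its place among them is no finding. With hairpin 1 there were 15 such sites, with a median of 2.23 and a highest value of 12.0, and TUBB6 was not among them. Pairs of sites up to 20 nt apart within the control list mostly had like scores: over 42 pairs the higher score was a median of 1.12-fold above the lower, with an upper quartile of 1.49, and 2 pairs exceeded 10-fold, the highest at 31.1. The knockdown lists had few such pairs, 3 with a highest ratio of 123 for hairpin 1 and 7 with a highest ratio of 29.6 for hairpin 2, so unequal scores at close bases also occurred within a list.

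SLC38A2 was the only one of the 3 genes with 3 control sites. From the 5' side of this minus-strand gene, the sites on chromosome 12 were at 46757484 with a score of 4, at 46754879 with 3479 and at 46752285 with 350. The middle one had rank 8 in the control list and rank 4 among nuclear sites. Neighbouring sites were 2605 and 2594 nt apart, and the last lay 313 nt from the 3' end of the interval. Neither hairpin listed any site of SLC38A2.

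TBC1D14 had 1 deep and 1 shallow control site near its 3' end, in an interval of 123675 nt. The deep site, on chromosome 4 at 7032275 (plus strand), had a score of 1293, rank 18 in the list and rank 11 among nuclear sites. The shallow site at 7033208 had a score of 4 and lay 933 nt downstream. Neither hairpin listed any site of TBC1D14.

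**Figure D1:**
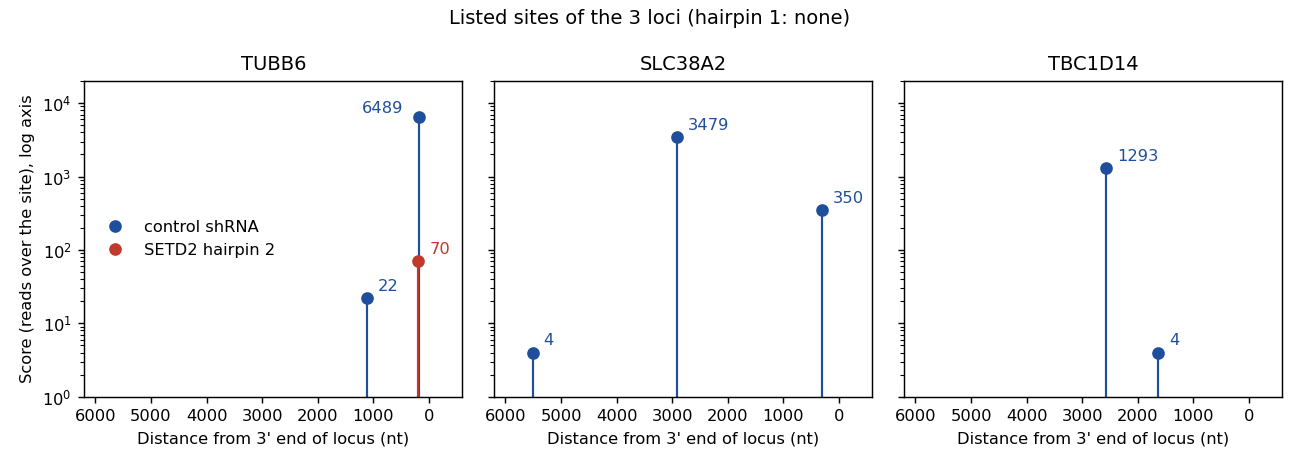
Score of every listed site (log axis) against its distance in nt from the 3' end of the interval, for TUBB6, SLC38A2 and TBC1D14, with control in blue and hairpin 2 in red. Each gene has 1 site above 1000 in control, hairpin 1 has no site, and the single hairpin 2 site has a score of 70 beside the TUBB6 site of 6489.

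Within each gene 1 base carried nearly all of the score. The deepest site held 99.7% of the summed control score in TUBB6 (6511), 90.8% in SLC38A2 (3833) and 99.7% in TBC1D14 (1297). The 7 sites together had a summed score of 11641, or 4.54% of the score of the control list and 5.66% of its nuclear score, while they were 0.186% of its sites. Of the 7 control sites, 6 lay at 80% or more of the way from the 5' to the 3' end of their interval. They stood at 93.9% and 99.1% of the way in TUBB6, 80.2% and 97.9% in SLC38A2, and 97.9% and 98.7% in TBC1D14. The exception was the SLC38A2 site of score 4, at 62.4%. An hg19 annotation was not used here, so exon, coding region and untranslated region were not assigned, and neither was the base sequence around the sites.

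The 3 deep sites stood apart from control sites of like depth, which is how they were chosen. Over all 3755 control sites, absence at the same base was the rule: 94.0% were not listed with hairpin 1, 93.5% not with hairpin 2 and 89.7% with neither, against 7 of 7 in the 3 genes for each. Among the 25 control sites with a score of 1000 or more, 16.0% were not listed with hairpin 1, 28.0% not with hairpin 2 and 12.0% with neither. That 12.0% is TUBB6, SLC38A2 and TBC1D14 themselves. With the 3 genes left out, 21 of 22 such sites were listed again with hairpin 1 (95.5%, interval 77.2 to 99.9), 18 of 22 with hairpin 2 (81.8%, interval 59.7 to 94.8) and 22 of 22 with at least 1 of them. Of these 22 sites, 12 were nuclear, and 12 of 12 were listed again with hairpin 1 and 10 of 12 with hairpin 2.

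**Figure D2:**
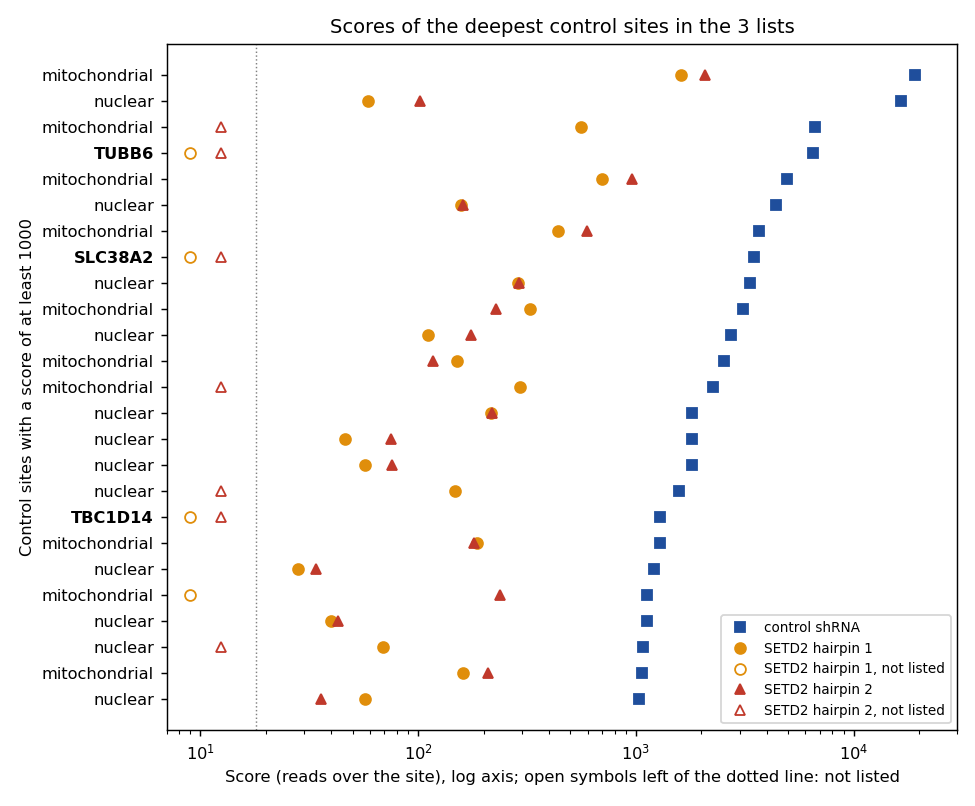
Score in each list (log axis) of the 25 control sites with a control score of at least 1000, sorted by it. Open symbols left of the dotted line mark sites that a knockdown list does not hold, and TUBB6, SLC38A2 and TBC1D14 are the 3 rows with both symbols open.

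The sites next to each gene in control score were listed in at least 1 knockdown. The 3 genes were chosen as the deepest control-only sites. Any other site scored above TBC1D14, at 1293, therefore had to be listed with at least 1 hairpin, and its listing is no result. Around TUBB6, a chromosome 1 site at 16826300 (plus strand) had scores of 16513 in control, 59 after hairpin 1 and 102 after hairpin 2. The mitochondrial site at 6445 had 6647 in control and 559 with hairpin 1 and was not listed with hairpin 2. Below TUBB6 came the mitochondrial site at 11284, with 4950 in control, 698 after hairpin 1 and 963 after hairpin 2. The chromosome 1 site at 91853097 (minus strand), which lies between TUBB6 and SLC38A2 in score, had 4399 in control, 157 after hairpin 1 and 160 after hairpin 2. These scores describe the neighbours and are no finding about TUBB6.

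Around SLC38A2, the mitochondrial site at 4919 had 3686 in control, 438 after hairpin 1 and 597 after hairpin 2. The chromosome 2 site at 21224714 (minus strand) had 3331 in control, 289 after hairpin 1 and 291 after hairpin 2. The mitochondrial site at 10300 had 3091 in control, 327 after hairpin 1 and 227 after hairpin 2. For SLC38A2 itself, at 3479 in control, no knockdown score exists to set beside these.

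Around TBC1D14, the chromosome 17 site at 79919015 (minus strand) had 1807 in control, 57 after hairpin 1 and 76 after hairpin 2. The chromosome 2 site at 21230785 (minus strand) had 1579 in control and 148 with hairpin 1 and was not listed with hairpin 2. The mitochondrial site at 14400 had 1285 in control, 187 after hairpin 1 and 181 after hairpin 2. The chromosome 7 site at 45928494 (plus strand) had 1209 in control, 28 after hairpin 1 and 34 after hairpin 2, the lowest knockdown scores among the deep sites. Among the 4 neighbours of TBC1D14 the lowest knockdown score was thus 28, with hairpin 1.

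The next control-only sites below the 3 genes were shallower. They were the chromosome 8 site at 27455529 (minus strand) with a score of 814, the mitochondrial site at 9605 with 741 and the chromosome 12 site at 121352942 (plus strand) with 715. The gap between the lowest deep member, TBC1D14 at 1293, and the first of these was therefore 1.59-fold.

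The 3 shallowest sites of the 3 genes were absent in classes of score where absence was frequent. In the class of the SLC38A2 site of 350, most sites were listed again with at least 1 hairpin. Among control sites scored 300 to 999, which take in the SLC38A2 site of 350, 61.8% were listed again with at least 1 hairpin (47 of 76, interval 49.98 to 72.75). Among those scored 20 to 99, which take in the TUBB6 site of 22, it was 14.1% (163 of 1155, interval 12.2 to 16.3). Among those scored 3 to 9, which take in the sites of 4 in SLC38A2 and TBC1D14, it was 2.03% (30 of 1476, interval 1.38 to 2.89). The absence of the 3 shallowest sites therefore adds no result about these genes.

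**Figure D3:**
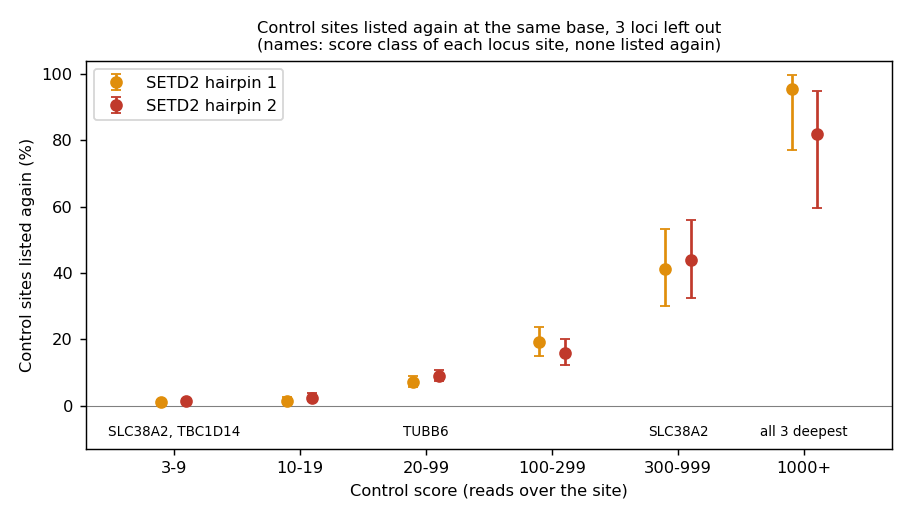
Percent of control sites listed again at the same base with each hairpin, by class of control score, with the 3 genes left out and 95% exact intervals as bars. The values run from about 1% at scores of 3 to 9 up to 95.5% and 81.8% at 1000 or more, and the names below 0 show the class of each site of the 3 genes.

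Knockdown scores at the deep sites that were listed again were many-fold lower. These sites were taken for a control score of at least 1000, a choice that by itself favours lower scores in the other lists. The 12 nuclear sites listed with hairpin 1 had a median score 26.4-fold below control, with a range from 8.41-fold to 280-fold. The 10 nuclear sites listed with hairpin 2 had a median 25.1-fold below control, with a range from 8.29-fold to 162-fold. Sites too low to be listed are missing from these folds. Library totals were not analysed here, and the folds are not scaled for depth. Fewer transcripts and fewer m6A-bearing fragments per transcript cannot be told apart by a score.

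Over all deep sites listed again, mitochondrial ones included, the median was 11.97-fold below control with hairpin 1 (21 sites) and 14.7-fold with hairpin 2 (18 sites).

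Dividing the control values of the 3 genes by a median fold gives values that depend on which sites the median is taken over. The control scores chose the genes, and the folds come only from sites that were listed again, so these values are a description. For TUBB6 the nuclear medians give 246 reads with hairpin 1 and 258 with hairpin 2, with 3.87 and 4.06 changed reads, and the medians over all deep sites give 542 and 443 reads, with 8.52 and 6.96 changed reads. For SLC38A2 the nuclear medians give 132 and 138 reads, with 2.05 and 2.15 changed reads, and those over all deep sites 291 and 237 reads, with 4.51 and 3.68. For TBC1D14 the nuclear medians give 49.0 and 51.4 reads, with 0.872 and 0.915 changed reads. The medians over all deep sites give it 108 and 88.2 reads, with 1.92 and 1.57 changed reads. All these changed reads carry over the control share of each site. The background rates fitted to the knockdown lists were lower, at 1.43% for hairpin 1 and 1.00% for hairpin 2 against 1.57% in control. They were not used in the division, and the changed reads would be fewer at those rates. At the highest nuclear fold, that of the chromosome 1 site at 16826300, TUBB6 would have stood at 23.2 reads with hairpin 1 and 40.1 with hairpin 2. SLC38A2 would have stood at 12.4 and 21.5 reads, and TBC1D14 at 4.62 and 7.99. That 1 site lay far from the rest, at 280-fold with hairpin 1 and 162-fold with hairpin 2. The next highest nuclear folds were 43.2 and 35.6, both at the chromosome 7 site at 45928494. Changed reads at 16826300 were also not resolved, with bounds of 567 and 16513. The part of depth in the absence of the 3 sites was not tested.

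The C-to-T share lay near the background rate of the list at all 3 deep sites. The changed reads were not themselves used to choose the genes. The share is still tied to that choice, since its denominator is the control score and the reconstruction allows no listed site without a changed read. TUBB6 had 102 changed reads among 6489 at its deep site, a share of 1.57% (interval 1.28 to 1.90). SLC38A2 had 54 among 3479, or 1.55% (1.17 to 2.02). TBC1D14 had 23 among 1293, or 1.78% (1.131 to 2.657). The rate of background change fitted to this list was also 1.57%, inside all 3 intervals. At that rate the binomial probability of at least as many changed reads is 0.508 in TUBB6, 0.552 in SLC38A2 and 0.302 in TBC1D14. These probabilities come from the same reconstruction as the changed reads and are not a further measurement: the running numbers put the sites at places 3342, 3408 and 3030 of 3755, and the reconstruction takes that order to follow the probability.

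The 3 shares did not differ detectably from each other. TUBB6 minus SLC38A2 was 0.02 percentage points (95% Newcombe interval -0.523 to 0.510), TUBB6 minus TBC1D14 was -0.207 (-1.125 to 0.471) and SLC38A2 minus TBC1D14 was -0.227 (-1.17 to 0.527). Two-sided Fisher's exact tests over these 3 pairs gave adjusted p of 1, 0.908 and 0.908. They compare positions in 1 pooled list and not conditions. The Newcombe intervals and all Fisher's tests of shares count reads as independent, although several can come from 1 molecule. Their denominators are the control scores that chose the genes, so they describe these sites alone. The second SLC38A2 site had 5 changed reads among 350, or 1.43% (interval 0.465 to 3.30), and did not differ detectably from the deep one (adjusted p = 1, Fisher's exact test, 1 comparison).

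The shallow sites and the hairpin 2 site rested on 1 to 3 changed reads. TUBB6 had 1 changed read among 22 at 12325459, a share of 4.55% (interval 0.115 to 22.8). The SLC38A2 site at 46757484 had 1 among 4, or 25.0% (0.631 to 80.6). The TBC1D14 site at 7033208 had 3 among 4, or 75.0% (19.4 to 99.4), and at the background rate its binomial probability was 1.53e-05, the lowest of the 8 sites. In TBC1D14 the site of 4 reads had a higher share than the site of 1293. This order could not have come out otherwise, since the fewest changes the reconstruction allows, 1 among 4, already make 25.0%. The shallow sites of TUBB6 and SLC38A2 likewise had higher shares than the deep ones, so the order is no finding about TBC1D14. The hairpin 2 site of TUBB6 had 1 changed read among 70, or 1.43% (0.0362 to 7.70), where the rate fitted to that list was 1.00%.

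The shares of the 3 deep sites were below the median of other well covered control sites. Of 14 other sites with a score of at least 1000 and a single possible read number, 4 had a share below TUBB6, 3 below SLC38A2 and 5 below TBC1D14, and their median was 2.22% (range 1.41 to 4.05). Of 413 other such sites with a score of at least 100, 42.1%, 41.2% and 47.5% had a lower share, with a median of 1.83%. Deep sites with only bounds on their changed reads are left out. Even at its lowest bound, each of them had a share above those of the 3 genes, so the 2.22% and its range lean low. The chromosome 7 site at 45928494, for instance, had at least 97 changed reads among 1209. Deep sites with a low share did recur elsewhere. Apart from the 3 genes, 6 control sites of at least 1000 had a share below 2%, of which 5 were listed with hairpin 1, 4 with hairpin 2 and 6 with at least 1. Of those 6, 3 were mitochondrial.

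**Figure D4:**
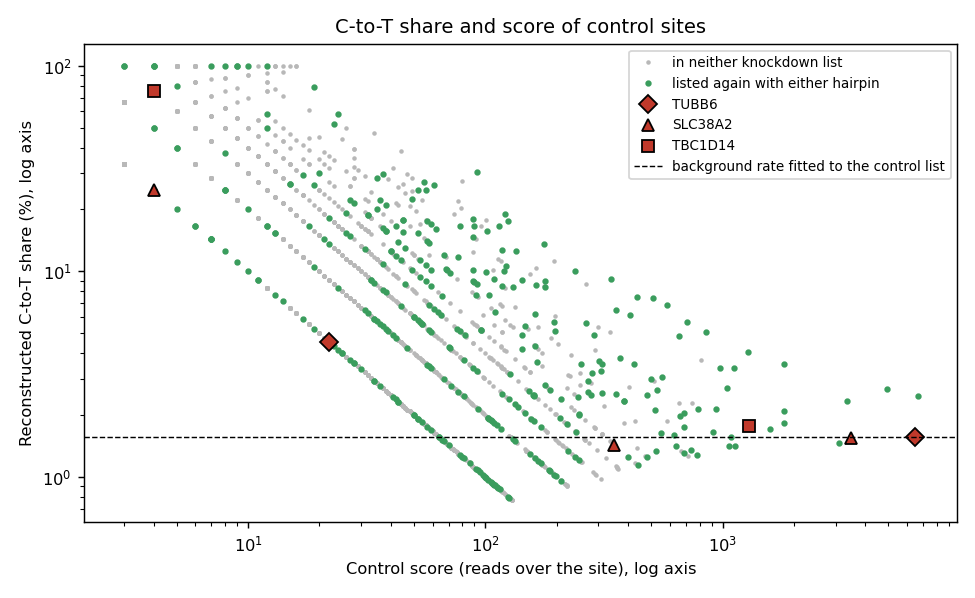
Reconstructed C-to-T share in percent against control score (both log axes) for control sites with a single possible read number, in grey where neither knockdown lists the base and in green where at least 1 does. The deep sites of TUBB6, SLC38A2 and TBC1D14 lie at 1.57%, 1.55% and 1.78%, beside the dashed background rate of 1.57%.

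No lower limit of share is stated for the lists, and the extremes given here come from the reconstructed reads. The highest binomial probability at any resolved site was 0.872 in the control list, against 0.817 for hairpin 1 and 0.811 for hairpin 2. With 1 changed read the highest listed score was 130 in control, against 118 for hairpin 1 and 165 for hairpin 2, and with 2 changed reads it was 222, 195 and 289. With 3 changed reads it was 306, 224 and 427, and with 4 it was 364, 239 and 380. For hairpin 2 it was thus lower with 4 changed reads than with 3. The part of any such limit in the absence of the 3 deep sites was not tested. The hairpin 2 site of TUBB6, with 1 changed read among 70, lay below the 165 of its list.

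Few other sites lay near the 3 genes. Within 1 Mb on the same strand, outside the intervals, control had 2 sites near TUBB6, 0 near SLC38A2 and 2 near TBC1D14. Their scores were 49 and 3 near TUBB6 and 55 and 35 near TBC1D14, and neither knockdown listed any of these bases. On the opposite strand, control had 1 site near TUBB6 (score 9) and 1 near TBC1D14 (score 25), also at bases that neither knockdown listed. The knockdown lists held other bases there: hairpin 1 had a plus-strand site with a score of 6 at 13049368 of chromosome 18, 722800 nt from TUBB6, and hairpin 2 had a minus-strand site with a score of 6 at 7313201 of chromosome 4, 278356 nt from TBC1D14. On the opposite strand near SLC38A2, both control sites were listed again with at least 1 hairpin, each time with a higher score than in control. The chromosome 12 site at 45826129 (plus strand), 925843 nt from SLC38A2, had 198 in control, 250 after hairpin 1 and 1341 after hairpin 2. The site at 46246030 (plus strand), 505942 nt away, had 66 in control and 149 with hairpin 2 and was not listed with hairpin 1.

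Other genes overlap TUBB6 and TBC1D14 at the level of whole genes, and the overlaps were not checked at the listed hg19 bases. In RefSeq's gene table for GRCh38.p14, AFG3L2, a mitochondrial protease gene of the opposite strand, overlaps TUBB6, and LOC100129931, a long noncoding RNA gene of the opposite strand, overlaps TBC1D14. The same table holds a pseudogene of related name, TUBB6P1, whose likeness in sequence to TUBB6 was not examined. Reads from a like copy could be shared with TUBB6, and the placing of such reads was not analysed here. RN7SKP292, a pseudogene whose strand the tables used here do not give, also overlaps TBC1D14. The libraries were stranded per the labels, and sites were taken on the strand of the named gene by rule. AFG3L2 and LOC100129931 thus do not share the strand of the listed sites.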

How the data were processed

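Per the submitters' processing notes, reads were handled with FastQC 0.11.5, cutadapt 1.13 and Bowtie 1.1.2 on hg19. The deposited site names carry rbsSeeker and CT. Filters, the tool's version and how replicates were pooled: not given in the sources used here. Deposited lists hold for each site a whole-number score set by the authors, with no normalization stated. The score summed to 256360 in control, 23420 for hairpin 1 and 51597 for hairpin 2, as sums over the listed sites and not library totals.

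The 3 genes, and the lists and tests used on them, were chosen with earlier results of these data known. All sites inside the 3 intervals are named, with the 2 control sites next above and below each deep site by score and the next 3 control-only sites. Changed reads were reconstructed as the whole numbers whose binomial probabilities follow the running numbers, at a background rate fitted per list (1.57%, 1.43% and 1.00%). All 3755, 482 and 697 sites could be placed in order, with a single value at 98.6%, 97.7% and 97.0%. The calculation was tested on simulated lists: each single-valued read number was recovered, and in the list of hairpin 2 length some sites without a single value had bounds that missed the true number. The simulated lists were ordered by the same binomial probability, so they do not test whether the deposited running numbers follow it. Sites matched by position and strand. Fisher's exact tests were Benjamini-Hochberg adjusted. Alternatives were other minimum scores, matching distances, depth classes and background rates, merged sites and the omission of chromosome M. The tubulin, SLC38 and TBC family lists were planned but not run, since they need an hg19 annotation, which was not used here. Python 3.11.15, numpy 2.4.6, scipy 1.17.1, pandas 2.3.3, statsmodels 0.14.6 and matplotlib 3.10.9 were used.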

Additional observations from a re-analysis of the deposited data

How the results depend on the processing

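With a matching distance of 20 nt (chosen after seeing the data) or 50 nt, 1 of the 7 control sites was matched with hairpin 2, the deep TUBB6 site, and with a match anywhere in the interval 2 were, both of TUBB6. The count was 0 at the same base, and with hairpin 1 it was 0 under each distance. Of control sites with a score of at least 100 in place of 1000, 26.5% were listed again with hairpin 1 and 23.8% with hairpin 2, against 84.0% and 72.0%. Minimum scores of 5, 10 and 20 each left 5 of the 7 control sites, without the 2 sites of score 4. With a score of at least 500 the shares were 67.9% and 60.7%. Of the 43 values recomputed under alternatives, 38 stayed within the limits set for them and the 5 given first did not. The limits were 1.5 times the reported value for a count, the 95% exact interval of the reported value for a share, and the same direction and side of the threshold for a test. The C-to-T shares and their tests had the same values at the lowest and highest background rates that place all sites in order. No paired analysis was possible because each list pools the 3 replicates of its shRNA, and for the same reason no replicate could be left out. The depth of a base that is not listed is unknown, so absence of a site does not measure the loss of m6A there.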
